A study of Mus musculus with 8 samples.

Results

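Cell cycle and replication genes were examined in BMEL cells, the bipotential mouse embryonic liver line that can differentiate towards hepatocytes or cholangiocytes, after forced expression of the epithelial transcription factor GRHL2. The genes were taken by symbol from a list of 54 genes of the G1/S transition, DNA replication and mitosis. No value entered the rule, but the list was chosen with earlier results of these data known. The deposited table held 52 of them among its 18671 genes, namely 12 regulators of G1, 16 genes of S phase and replication, 22 genes of G2 and mitosis and 2 inhibitors of cyclin-dependent kinases (CDKs). The other 2 listed symbols, Cdkn2a and Cdkn2b, matched no row and were not analysed here. RNA-seq covered 8 samples of BMEL cells, 4 transfected with a plasmid coding for Flag-tagged human GRHL2 under the EF1A promoter (GRHL2 samples) and 4 transfected with the pcDNA3 vector (control samples), each group numbered as replicates 1 to 4. The GRHL2 plasmid also codes for enhanced green fluorescent protein and pcDNA3 is a different vector, so a part of GRHL2 in a difference cannot be told apart from that of the plasmid. Cells were harvested 48 h after transfection, and whether all samples were harvested at the same time is not stated. No sorting of transfected cells is described. Both groups were grown on collagen in medium that held serum, insulin, EGF and IGFII. All samples come from 1 cell line.

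Proliferating cells pass from G1 into S phase when D- and E-type cyclins with CDK4/6 and CDK2 inactivate the retinoblastoma protein and free E2F factors, which activate genes of DNA replication. Genes of G2 and mitosis are activated later through the MuvB, B-MYB and FOXM1 proteins, which act through a short promoter element called the cell cycle genes homology region (CHR), often together with CCAAT boxes bound by NF-Y. CDK inhibitors of the INK4 and CIP/KIP families oppose these steps. Liver progenitor lines such as BMEL proliferate continuously in culture, whereas hepatocytes of the adult liver are mostly quiescent. In bulk RNA, fewer cycling cells and less RNA of a gene per cell cannot be told apart.

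The values were read, from their range, as log2 values less the log2 of transcript length, a reading that the sources used here do not state in this form. On that reading they can be set side by side between genes, and a difference of 1 between samples is a doubling. The read depth per sample is unknown from such values. Mouse Grhl2 lay at 6.24 with the GRHL2 plasmid (SD 0.549, n = 4) and at 4.53 with pcDNA3 (SD 0.124, n = 4), a log2 difference of 1.71 (adjusted p = 0.001, limma), and how far reads of the human cDNA enter this value is not known. Same-numbered samples of the 2 groups shared part of their deviation, so a fit that takes the replicate number as a block was run too, and its result is given where the call differs. Of 11 liver progenitor markers, Krt8, Krt18 and Krt19 had means over the 8 samples from 14.79 to 15.36 and Hnf4a one of 11.16, while Afp (8.22), Epcam (7.30), Sox9 (6.82) and Alb (5.22) were lower. Limma called 3 of these 11 genes (Epcam by 1.75 and Cdh1 by 0.29 higher, Afp by 0.21 lower) and 7 with the block, where it called 16.4% and 32.1% of all genes, while Krt8, Krt18, Hnf4a and Alb were called by neither fit. The part of these changes in the results below was not tested. The means of 5 endothelial markers ran from -0.53 (Tie1) to 3.29 (Pecam1), those of 5 mesenchymal markers from -0.18 (Pdgfrb) to 5.28 (Col1a1), and the leukocyte markers Ptprc, Itgam, Csf1r and Cd68 lay at 0.89, 2.25, 4.46 and 6.17. Limma called 0 of the 5 endothelial genes, 1 of the 5 mesenchymal genes and none of these 4 leukocyte genes. An unadjusted p under 0.05 was found for 4 of the 5 endothelial genes, against 31.0% of all genes. The block called 2 endothelial, 2 mesenchymal and 2 leukocyte genes (Cd68 higher, Itgam lower). The shares of all genes called are the same 16.4% and 32.1%.

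Sequences around the transcription start were searched for short elements. The classes of genes were set by function and not by these elements. Promoters were found in the RefSeq-based set (GRCm38.p6, 250 bases before to 50 after the start) for 39 of the 52 genes. Letters typical of E2F sites (TTTCGCGC, TTTGGCGC or TTTCCCGC, on either strand) occurred in 8 of 16 promoters of S phase and replication genes (50.0%), 1 of 16 promoters of mitotic genes (6.25%) and 1.84% of all 32851 promoters. CHR letters (TTTGAA or TTCGAA, either strand) occurred in 13 of the 16 mitotic promoters (81.2%), 2 of the 16 S phase promoters (12.5%) and 19.2% of all promoters. The CCAAT box (CCAAT, either strand) was found in 15 of 16 mitotic promoters (93.8%) and 13 of 16 S phase promoters (81.2%), against 37.4% of all. The letters bound by Grainyhead factors (AACCNGTT, either strand) were found in 1 promoter of the 44 searched here, that of Rrm2, or 2.27% against 2.09% of all promoters. Genes with 2 listed starts gave 2 promoters, and a match is a description of letters and not a bound site. The first 3 sequences below hold E2F letters, CHR letters and the single Grainyhead match and were chosen after the matches were seen, and the other 4 belong to the genes that passed the test between GRHL2 and control samples. Each gives the 250 bases before the start on the coding strand of GRCm38.p6, with matches to any of these letters in capitals.
Mcm7, S phase class, first of 2 listed starts, chr5:138171884-138172133, minus strand: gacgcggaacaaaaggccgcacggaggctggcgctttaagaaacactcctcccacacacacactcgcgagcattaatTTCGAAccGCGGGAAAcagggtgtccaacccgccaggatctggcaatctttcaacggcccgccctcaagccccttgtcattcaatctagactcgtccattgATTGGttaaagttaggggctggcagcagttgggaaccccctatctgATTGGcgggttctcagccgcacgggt
Cdk1, mitosis class, chr10:69352913-69353162, minus strand: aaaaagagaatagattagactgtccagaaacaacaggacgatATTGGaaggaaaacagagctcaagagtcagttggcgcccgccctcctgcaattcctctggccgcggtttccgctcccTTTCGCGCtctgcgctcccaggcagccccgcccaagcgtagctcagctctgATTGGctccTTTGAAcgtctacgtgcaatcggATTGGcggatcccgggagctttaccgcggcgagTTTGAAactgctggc
Rrm2, S phase class, chr12:24708004-24708253, plus strand: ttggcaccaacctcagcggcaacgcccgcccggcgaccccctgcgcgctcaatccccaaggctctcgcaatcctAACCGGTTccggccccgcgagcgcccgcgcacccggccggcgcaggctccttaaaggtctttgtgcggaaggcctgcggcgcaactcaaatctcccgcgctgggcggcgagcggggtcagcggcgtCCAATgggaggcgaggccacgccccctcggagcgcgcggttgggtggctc
Top2a, mitosis class, chr11:99024190-99024439, minus strand: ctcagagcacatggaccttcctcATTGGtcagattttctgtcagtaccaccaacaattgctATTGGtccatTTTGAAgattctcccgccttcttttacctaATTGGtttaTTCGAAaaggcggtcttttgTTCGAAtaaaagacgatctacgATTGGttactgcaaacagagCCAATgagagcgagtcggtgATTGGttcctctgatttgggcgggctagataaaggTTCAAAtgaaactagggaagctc
Cdc25b, mitosis class, chr2:131186698-131186947, plus strand: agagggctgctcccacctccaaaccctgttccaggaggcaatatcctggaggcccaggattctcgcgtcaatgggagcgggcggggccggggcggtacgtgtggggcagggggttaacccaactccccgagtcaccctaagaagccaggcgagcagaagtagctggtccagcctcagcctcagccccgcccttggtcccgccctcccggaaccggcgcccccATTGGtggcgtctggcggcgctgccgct
Slbp, S phase class, chr5:33652575-33652824, minus strand: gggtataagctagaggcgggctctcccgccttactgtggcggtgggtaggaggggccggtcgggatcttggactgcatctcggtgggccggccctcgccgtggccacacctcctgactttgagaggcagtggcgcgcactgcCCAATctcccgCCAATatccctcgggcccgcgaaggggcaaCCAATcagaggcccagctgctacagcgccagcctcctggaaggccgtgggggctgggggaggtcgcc
Cdkn2c, CDK inhibitor, first of 2 listed starts, chr4:109666757-109667006, minus strand: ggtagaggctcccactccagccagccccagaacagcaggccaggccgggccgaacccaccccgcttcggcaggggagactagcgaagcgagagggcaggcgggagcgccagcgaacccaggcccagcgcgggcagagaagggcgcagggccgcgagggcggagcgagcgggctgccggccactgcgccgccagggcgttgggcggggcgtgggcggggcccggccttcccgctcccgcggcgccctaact
In these windows Mcm7 has E2F letters starting at position -165 and CHR letters at -173, Cdk1 has E2F letters at -131 and CHR letters at -71 and -15, and Rrm2 has AACCGGTT at -176. Mcm7 and Cdk1 thus carry the letters of both classes, which is unusual here, as Cdk1 is the 1 mitotic promoter with E2F letters and Mcm7 is 1 of 2 S phase promoters with CHR letters. Top2a holds 4 CHR matches and 6 CCAAT boxes, while Slbp holds 3 CCAAT boxes and the Cdkn2c window none of these letters. Cdc25b has a CCAAT box at -28, and its only CHR match lies after the start, at position 8.

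**Figure D1:**
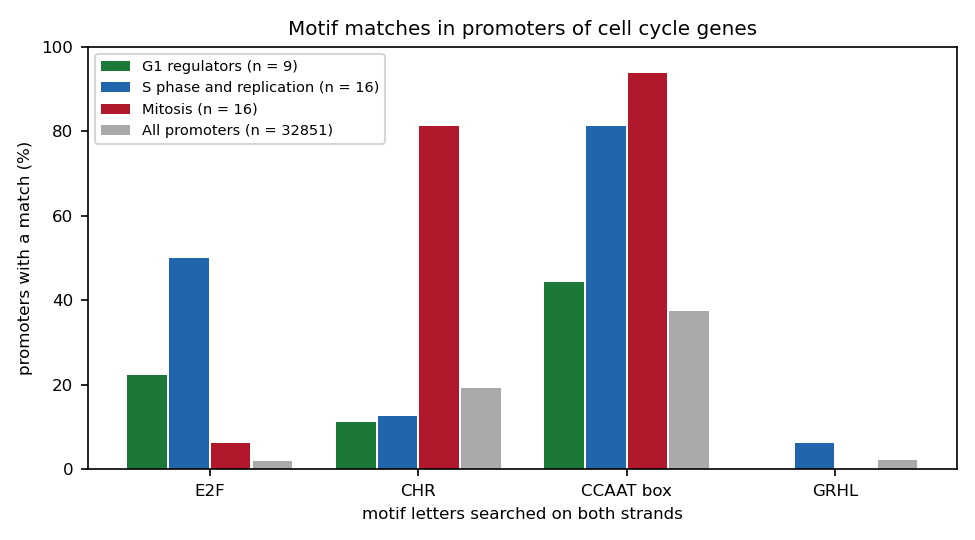
Share of promoters (%, vertical axis) with a match to each motif, in G1 regulators (9 promoters), S phase and replication genes (16), mitotic genes (16) and all 32851 promoters. E2F letters stand at 50.0% in the S phase class and CHR letters at 81.2% in the mitotic class, and Grainyhead (GRHL) letters at 6.25% or lower in each set shown.

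Of the 52 cell cycle genes, Cdc25b, Cdkn2c and Top2a were higher and Slbp was lower in GRHL2 samples at an adjusted p under 0.05 (limma, all 18671 genes), the threshold for a called gene. The 4 calls make up 7.69% of the genes, against 16.4% of all genes called in either direction, 10.5% higher and 5.91% lower, and against 14.1% of the 8291 genes whose mean value lay in the same range as that of the cell cycle genes. The median log2 difference was 0.028 for the 52 genes, 0.007 for all genes and -0.022 for the genes in the same range of mean values. The median size without regard to sign was 0.076, 0.061 and 0.090 in the same order. An unadjusted p under 0.05 was found for 10 of the 52 genes (19.2%), against 31.0% of all genes and 30.0% of those in the same range. For each of the 48 genes not called, the 95% interval of the difference stayed between -0.39 and 0.38, and for 42 of them within 0.3 on either side of 0. The 52 genes were at the 54.7th to 99.1st percentile of mean values, where the shrinkage of the authors' scale takes less from a difference than in low genes.

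With the replicate block, limma called 8 of the 52 genes higher and 7 lower (28.8%). The block called 32.1% of all genes in either direction, 18.2% higher and 13.9% lower, and 37.3% of the genes in the same range of mean values. These include the 4 genes named above. By class, the block gave calls for 2 of 12 G1 regulators, 2 of 16 S phase genes, 10 of 22 mitotic genes and 1 of 2 CDK inhibitors. In 32 of the 52 genes (61.5%), all 4 same-numbered pairs pointed the same way, against 48.6% of all genes and 54.9% of those in the same range of mean values. Of the 52 genes, 19 were higher and 13 lower in each pair. Over all 18671 genes 5088 were higher and 3977 lower, and over the 8291 genes in the same range 1798 and 2751. The 4 values of one group lay wholly apart from those of the other in 8 genes, 6 with GRHL2 above and 2 with GRHL2 below, where the shares over all genes were 23.8% in either direction, 14.3% above and 9.47% below, and 22.6% in either direction over the genes in the same range. When both samples numbered 2 were left out, an alternative chosen after seeing the data, the block called 8 genes higher and 5 lower.

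**Figure D2:**
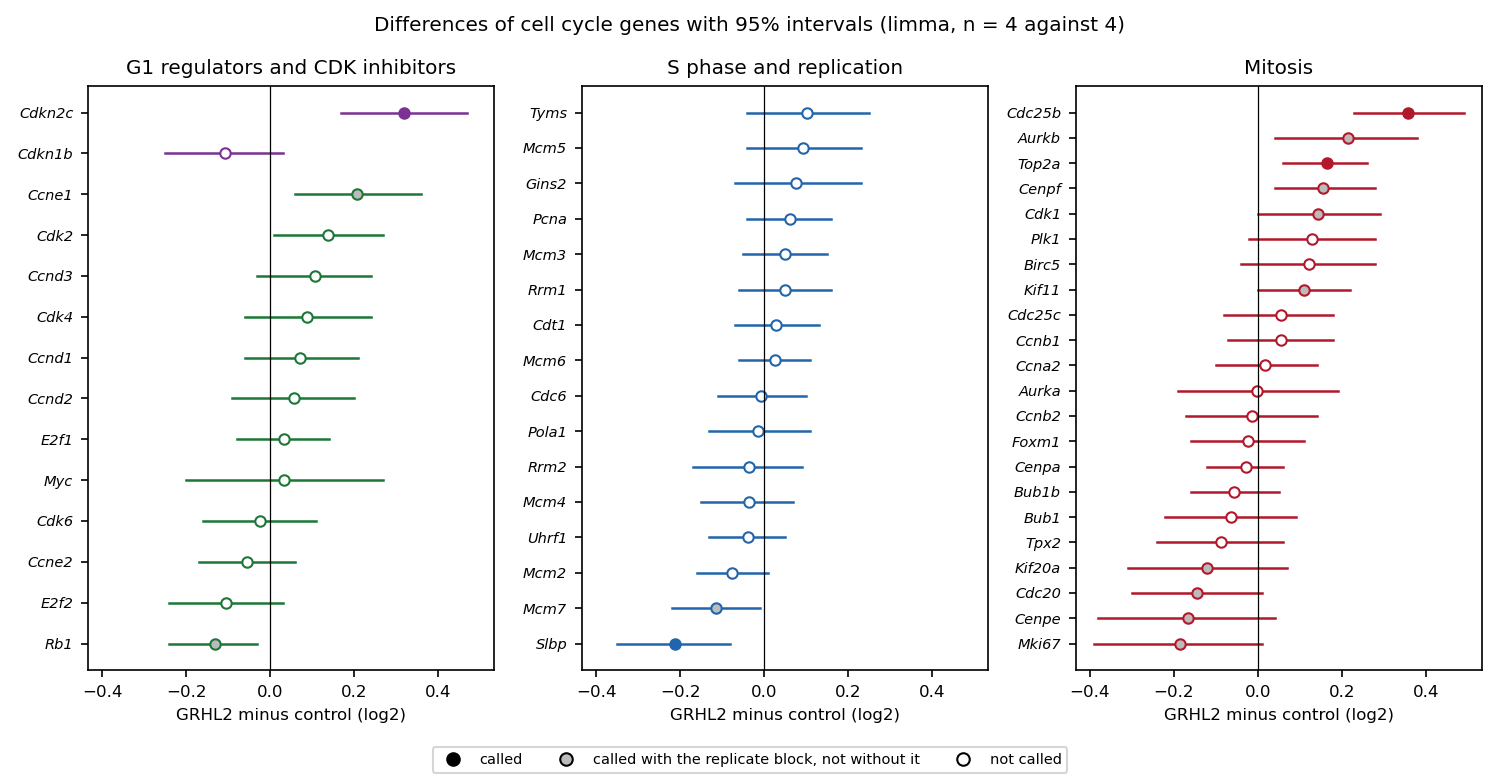
Log2 difference of GRHL2 minus control (horizontal axis) with its 95% interval for each of the 52 genes, by class, from limma on 4 against 4 samples. Filled points passed an adjusted p under 0.05, grey points passed it with the replicate block and not in the same fit without it, and open points in neither. In 10 genes (19.2%) the interval leaves out 0, where 31.0% of all genes had an unadjusted p under 0.05. The interval lies farthest from 0 in Cdc25b (0.23 to 0.49) and Cdkn2c (0.17 to 0.47).

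Among the G1 regulators, limma called 0 of 12 genes without the block, and 3 had an unadjusted p under 0.05 (25.0%, against 31.0% of all genes). The D-type cyclins, which link growth factor signals to CDK4 and CDK6, differed in level in these cells. Ccnd1 was at 13.04, 12.96, 12.82 and 12.80 in GRHL2 replicates 1 to 4 and at 12.92, 12.85, 12.79 and 12.77 in the control replicates. Each GRHL2 sample was above the control sample of its number, but the groups overlapped and the difference of 0.07 was not called (95% interval -0.06 to 0.21, adjusted p = 0.459, limma, or 0.0804 with the block). Ccnd2 was close below it in level, with a mean of 12.25 over the 8 samples and a difference of 0.06, and Ccnd3 was at 9.02 with a difference of 0.11, and neither was called. With the block and without the samples numbered 2, Ccnd2 had an adjusted p of 0.0269 (limma) and a difference of 0.07. Of their kinase partners, Cdk4 had a mean of 12.44 and a difference of 0.09 (95% interval -0.06 to 0.24), and Cdk6 a mean of 9.23 and a difference of -0.02 (95% interval -0.16 to 0.11), and neither was called. The Cdk4 difference ran from 0.02 to 0.12 over the 8 fits that left out 1 sample.

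Ccne1, an E-type cyclin that activates CDK2 at the entry into S phase (GRCm38 chromosome 7, 38097984 to 38107534), was at 9.36, 9.38, 9.13 and 9.19 in GRHL2 samples and at 9.11, 8.95, 9.11 and 9.07 in control samples. The lowest GRHL2 value was above the highest control value, with replicates 1 and 2 well apart from their controls and replicates 3 and 4 close to them. The log2 difference was 0.21 (SE 0.0680, adjusted p = 0.0642, limma), and 0.0311 was the adjusted p with the replicate block. Replicates 1 and 2 alone gave 0.34, replicates 3 and 4 alone gave 0.07, and the block without the samples numbered 2 gave 0.13 with an adjusted p of 0.0536. The other E-type cyclin gene, Ccne2, had a difference of -0.05 with a 95% interval from -0.17 to 0.06. Cdk2 itself had a difference of 0.14, with an adjusted p of 0.137 (limma) and 0.0514 with the block, or 0.0478 with the block and the correction for GC content.

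Rb1, the retinoblastoma protein that holds E2F factors in check (chromosome 14, 73183673 to 73325822), was at 8.89, 8.98, 8.95 and 8.95 in GRHL2 samples and at 9.00, 9.13, 9.09 and 9.10 in control samples. The groups did not overlap, and each GRHL2 value was below the lowest control value. The log2 difference was -0.13 (SE 0.0465), and its adjusted p was 0.0818 (limma) without the block and 0.0187 with it. The correction for GC content together with the block gave 0.0523. E2f1, an activating E2F factor and a target of its own family, differed by 0.03 (95% interval -0.08 to 0.14), and E2f2 by -0.11 (95% interval -0.24 to 0.03).

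Myc, a growth-promoting transcription factor, was at 10.68, 10.69, 10.37 and 10.36 in GRHL2 samples and at 10.61, 10.67, 10.37 and 10.32 in control samples. Replicates 1 and 2 were higher than replicates 3 and 4 in both groups, by 0.32 in GRHL2 samples and 0.30 in control samples, and the difference between the groups was 0.03 (adjusted p = 0.864, limma, and 0.462 with the block). With the samples paired, the 95% interval of the Myc difference was -0.04 to 0.11.

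Among the 16 genes of S phase and replication, 1 was called by limma, 8 had a positive and 8 a negative difference, and the median difference was 0.011. Slbp codes for the protein that binds the stem-loop of replication-dependent histone mRNAs (chromosome 5, 33634952 to 33652574). It was at 10.16, 10.11, 10.22 and 10.14 in GRHL2 samples and at 10.41, 10.52, 10.30 and 10.27 in control samples, so that the highest GRHL2 value was below the lowest control value. The log2 difference was -0.21 (SE 0.0602, adjusted p = 0.0378, limma). Its two-sided exact permutation p was 0.0286, the smallest that 4 samples a group allow. Replicates 1 and 2 alone gave -0.33, and replicates 3 and 4 alone gave -0.10. The call was lost in 6 of the 8 fits that left out 1 sample, those without any 1 GRHL2 sample and those without control replicate 1 or 2, with adjusted p-values up to 0.102, and the difference ran from -0.25 to -0.17 over the 8 fits.

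The MCM2-7 proteins form the ring-shaped helicase that is loaded at replication origins. Their 6 genes had means over the 8 samples from 10.95 (Mcm5) to 12.55 (Mcm7), and none was called by limma without the block. An unadjusted p under 0.05 was found for 1 of the 6 (16.7%, against 31.0% of all genes). Mcm7 (chromosome 5, 138164583 to 138172422) was at 12.54, 12.50, 12.48 and 12.45 in GRHL2 samples and at 12.69, 12.65, 12.56 and 12.53 in control samples. Each GRHL2 sample was below the control sample of its number, while the groups overlapped by a small margin. The difference was -0.12, with an adjusted p of 0.114 (limma) and of 0.0137 with the block. The other 5 helicase genes differed by -0.07 (Mcm2) to 0.09 (Mcm5), and none was called with the block, while Mcm2 had an adjusted p of 0.0195 with the block and the GC correction.

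Pcna codes for the sliding clamp of the replication polymerases. It was at 12.74, 12.63, 12.74 and 12.71 in GRHL2 samples and at 12.73, 12.59, 12.63 and 12.63 in control samples, with overlapping groups and a difference of 0.06 (95% interval -0.04 to 0.16, adjusted p = 0.376, limma, and 0.136 with the block). Pcna was called higher in replicates 3 and 4 alone (adjusted p = 0.0393, limma) and with the block and the GC correction (adjusted p = 0.0287, limma). The licensing factors Cdc6 and Cdt1, which load the helicase, differed by -0.01 (95% interval -0.11 to 0.10) and 0.03 (95% interval -0.07 to 0.13). Rrm1 and Rrm2, the subunits of ribonucleotide reductase that makes deoxyribonucleotides, differed by 0.05 and -0.04, and neither was called. Rrm2, whose promoter holds the Grainyhead letters printed above, had the highest mean of the 52 genes, 13.01, and the 95% interval of its difference was -0.17 to 0.09. Tyms, the thymidylate synthase gene, differed by 0.10 (95% interval -0.04 to 0.25), and was not called. Over the 8 fits that left out 1 sample the Tyms difference ran from 0.05 to 0.14. Gins2, a subunit of the replicative helicase, Pola1, the catalytic subunit of the polymerase that starts new strands, and Uhrf1, which keeps DNA methylation through replication, differed by 0.08, -0.01 and -0.04 and were likewise not called. The Gins2 difference ran from 0.01 to 0.10 over the 8 fits that left out 1 sample.

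**Figure D3:**
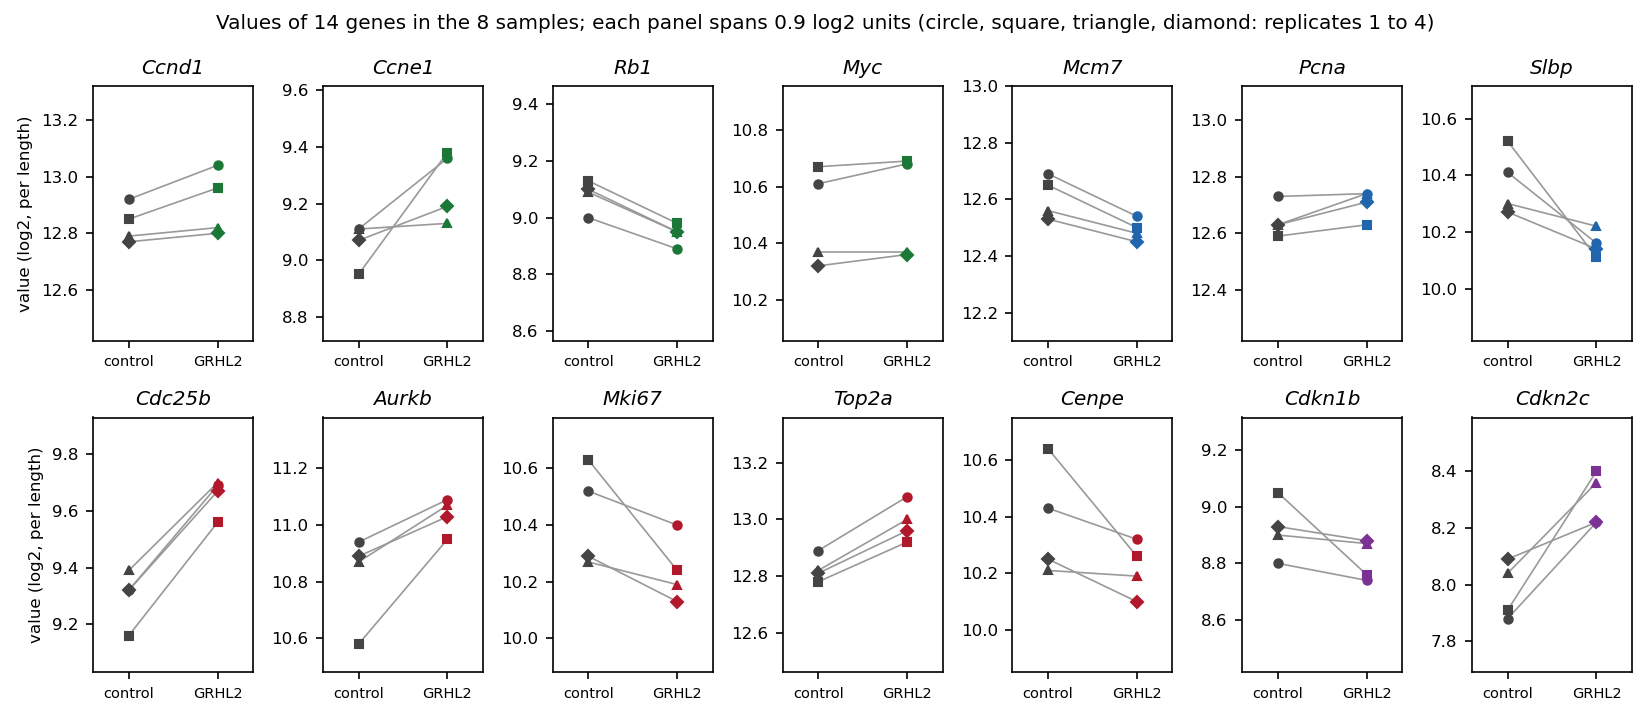
Values (log2, relative to transcript length) of 14 genes in the 8 samples, with control samples on the left, GRHL2 samples on the right and a line joining samples of the same replicate number. Each panel has the same height in log2 units, and the GRHL2 values lie wholly above the control values for Cdc25b, Cdkn2c, Top2a, Aurkb and Ccne1, and below them for Slbp and Rb1.

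Of the 22 mitotic genes, limma placed 2 past the threshold as higher and 0 as lower, and 11 had a positive and 11 a negative difference. An unadjusted p under 0.05 was found for 4 of the 22 (18.2%, against 31.0% of all genes). Cdc25b, a phosphatase that activates CDK1 with cyclin B at the onset of mitosis, had the largest difference of the 52 genes. It lies on chromosome 2, 131186949 to 131198497, plus strand. Its values were 9.69, 9.56, 9.70 and 9.67 in GRHL2 samples and 9.32, 9.16, 9.39 and 9.32 in control samples. The lowest GRHL2 value exceeded the highest control value, and the 4 pairs showed similar distances. The log2 difference was 0.36 (SE 0.0594, 95% interval 0.23 to 0.49, adjusted p = 0.00346, limma), a ratio of 1.28, and the two-sided exact permutation p was 0.0286. Replicates 1 and 2 alone gave 0.38 (adjusted p = 0.0557, limma), and replicates 3 and 4 alone gave 0.33 (adjusted p = 0.00443, limma). Over the fits that left out 1 sample, Cdc25b ran from 0.31 to 0.39 and stayed called in all 8. Its relative Cdc25c differed by 0.05 (95% interval -0.08 to 0.18).

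Top2a, the DNA topoisomerase that untangles replicated chromosomes (chromosome 11, 98992943 to 99024189, minus strand), was at 13.08, 12.92, 13.00 and 12.96 in GRHL2 samples and at 12.89, 12.78, 12.82 and 12.81 in control samples. The groups did not overlap, and control replicate 1 was the only control value close to the GRHL2 values. The log2 difference was 0.16 (SE 0.0446, adjusted p = 0.0329, limma), and it was 0.16 in replicates 1 and 2 alone (adjusted p = 0.236, limma) and 0.16 in replicates 3 and 4 alone (adjusted p = 0.00698, limma). Of the fits that left out 1 sample, the call was lost without GRHL2 replicate 1, 3 or 4 and without control replicate 2, 3 or 4, with adjusted p-values up to 0.0855 and differences from 0.13 to 0.19. With an equal median of all samples Top2a was not called either. With the block its adjusted p was 0.00162.

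A further 8 mitotic genes were called with the replicate block and not in the same fit without it, 4 higher and 4 lower. Aurkb, the kinase of the chromosomal passenger complex, was at 11.09, 10.95, 11.07 and 11.03 in GRHL2 samples and at 10.94, 10.58, 10.87 and 10.89 in control samples, with no overlap of the groups and control replicate 2 the lowest. Its difference was 0.21 (adjusted p = 0.0846, limma, and 0.00584 with the block), and 0.14 without control replicate 2. Cenpf, Cdk1 and Kif11, which code for a kinetochore protein, the mitotic kinase and a spindle motor, had differences of 0.16, 0.14 and 0.11, with adjusted p-values of 0.0748, 0.165 and 0.169 (limma) and of 0.0107, 0.0116 and 0.0306 with the block. Cenpf was also called without the block under the GC correction (adjusted p = 0.0495, limma). In replicates 3 and 4 alone, Cenpf and Aurkb were called too (adjusted p = 0.0481 and 0.0158, limma). Without control replicate 2 the Cdk1 difference was 0.09. For each of these genes, all 4 same-numbered pairs were higher in GRHL2 samples.

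The 4 genes called lower with the block were Mki67, Cenpe, Cdc20 and Kif20a. Mki67, which codes for the proliferation marker Ki-67, was at 10.40, 10.24, 10.19 and 10.13 in GRHL2 samples and at 10.52, 10.63, 10.27 and 10.29 in control samples. Each GRHL2 sample was below the control sample of its number. Replicates 1 and 2 averaged higher than replicates 3 and 4 in both groups. The groups overlapped only through GRHL2 replicate 1, which was above control replicates 3 and 4. The difference was -0.19 (95% interval -0.39 to 0.01, adjusted p = 0.192, limma, and 0.0231 with the block), and it was -0.12 without control replicate 2. Cenpe, a kinesin of the kinetochore, was at 10.32, 10.26, 10.19 and 10.10 in GRHL2 samples and at 10.43, 10.64, 10.21 and 10.25 in control samples. The Cenpe difference was -0.17 (adjusted p = 0.263, limma, and 0.0442 with the block). It was -0.08 without control replicate 2, and with both samples numbered 2 left out the adjusted p with the block was 0.0609. Cdc20, an activator of the anaphase-promoting complex, and Kif20a, a kinesin of cytokinesis, had differences of -0.15 and -0.12, with adjusted p-values of 0.188 and 0.370 (limma) and of 0.00616 and 0.0427 with the block. With both samples numbered 2 left out, Kif20a had an adjusted p of 0.0705 with the block and Cdc20 one of 0.00366. Without control replicate 2 the Kif20a difference was -0.06. A part of Kif20a, 29.3% of its exon bases, is shared with exons of Cdc23 on the other strand, and counting did not use the strand.

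The other 12 mitotic genes were called by neither fit. They include the A- and B-type cyclin genes Ccna2, Ccnb1 and Ccnb2, with differences of 0.02, 0.05 and -0.01, and Foxm1, the transcription factor of the G2/M genes, with -0.02 (95% interval -0.16 to 0.11). Aurka, the spindle pole kinase, lay at 10.91 in both groups, with a 95% interval of the difference from -0.19 to 0.19. Bub1, Bub1b, Tpx2 and Cenpa, which serve the spindle checkpoint, the spindle and the centromere, differed by -0.06, -0.06, -0.09 and -0.03. Plk1, a mitotic kinase, and Birc5, which codes for survivin, differed by 0.13 and 0.12, with adjusted p-values of 0.219 and 0.281 (limma) and of 0.0522 and 0.0669 with the block. Without control replicate 2 the Birc5 difference was 0.06.

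Of the CDK inhibitors, Cdkn2c was higher in GRHL2 samples. Cdkn2c codes for p18, an INK4 inhibitor of CDK4 and CDK6 (chromosome 4, 109660876 to 109667189, minus strand). It was at 8.22, 8.40, 8.36 and 8.22 in GRHL2 samples and at 7.88, 7.91, 8.04 and 8.09 in control samples, with no overlap of the groups. The log2 difference was 0.32 (SE 0.0668, 95% interval 0.17 to 0.47, adjusted p = 0.0111, limma), a ratio of 1.25, and the two-sided exact permutation p was 0.0286. Replicates 1 and 2 alone gave 0.42 and replicates 3 and 4 alone 0.22, and Cdkn2c stayed called in each of the 8 fits that left out 1 sample, from 0.28 to 0.36. Cdkn1b, which codes for the CIP/KIP inhibitor p27, was at 8.74, 8.76, 8.87 and 8.88 in GRHL2 samples and at 8.80, 9.05, 8.90 and 8.93 in control samples. Its difference was -0.11 (95% interval -0.25 to 0.03, adjusted p = 0.274, limma, and 0.132 with the block), with overlapping groups.

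The difference between replicates 1 and 2 and replicates 3 and 4 had the same sign in both groups in 36 of the 52 genes. Over all genes this held in 13235 of 18671. In 16 of the 22 mitotic genes replicates 1 and 2 averaged higher than replicates 3 and 4 in both groups. In 3 they averaged lower in both. Over all 18671 genes these counts were 7587 and 5648. The sign was shared in 9 of 16 S phase genes, 8 of 12 G1 regulators and 0 of 2 CDK inhibitors. The median of the mitotic genes, each centred on its own mean, was 0.081, 0.018, -0.015 and -0.027 in GRHL2 replicates 1 to 4 and 0.068, -0.025, -0.060 and -0.073 in the control replicates. The sample with the highest mitotic median was thus replicate 1 in each group. For the S phase genes these medians were 0.034, -0.027, 0.022 and -0.016 in GRHL2 samples and 0.059, -0.008, -0.004 and -0.031 in control samples. The deviations of single samples from their group means had a median Pearson's r of 0.43 over 231 pairs of mitotic genes, 0.36 over 120 pairs of S phase genes, 0.35 between the 2 classes and -0.06 among G1 regulators. These values describe 8 samples, whose replicate numbers are shared between the groups. No such r was taken over all genes, so how far it reflects a spread shared by genes in general is not known.

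**Figure D4:**
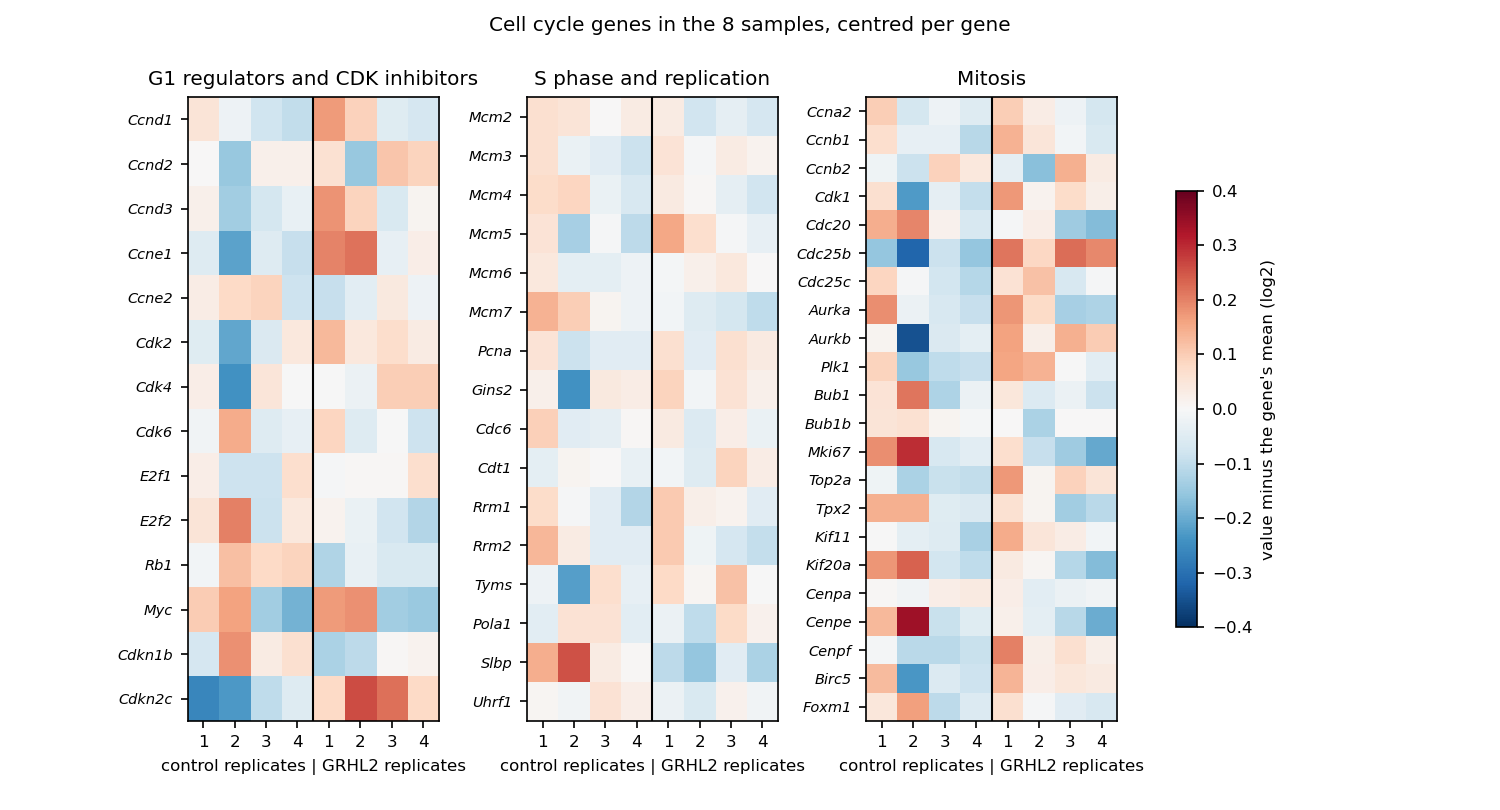
Value minus the gene's mean over the 8 samples (log2, colour) for the 52 genes in rows and the samples in columns, control replicates 1 to 4 left of the line and GRHL2 replicates 1 to 4 right of it. Cdc25b and Cdkn2c are blue in the control and red in the GRHL2 samples, Slbp is white to red in the control and blue in the GRHL2 samples, and Mki67, Cenpe and Kif20a are darkest red in control replicates 1 and 2.

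Replicates 1 and 2 and replicates 3 and 4 gave separate estimates of each difference from different samples. The sign was the same in 41 of the 52 genes (13995 of all 18671), and across the 52 genes, which are not independent replicates, Pearson's r was 0.82 and Spearman's rho 0.79, against 0.85 and 0.73 across all genes. The median difference of the S phase genes was -0.026 in the former and 0.029 in the latter, and that of the mitotic genes 0.045 and 0.023.

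**Figure D5:**
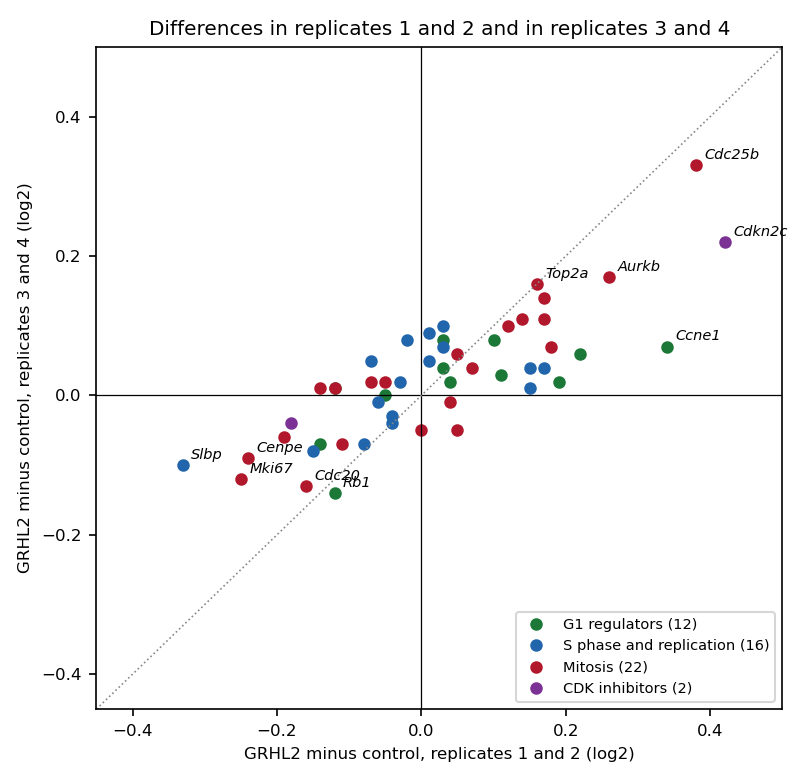
Log2 difference of GRHL2 minus control in replicates 3 and 4 (vertical axis) against that in replicates 1 and 2 (horizontal axis), with each point 1 gene coloured by class and the dotted line marking equal values. Cdc25b (0.38 and 0.33) and Top2a (0.16 and 0.16) lie near the line, and Ccne1 (0.34 and 0.07) and Slbp (-0.33 and -0.10) lie off it.

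Further genes of the same pathways came from 3 lists. Of 33 other G1 regulators, limma called 2 higher and 1 lower (9.09%, against 16.4% of all genes). Mycl, a relative of Myc, rose by 0.78 on the log2 scale (adjusted p = 0.000253) from a mean of 4.60 in control samples, and Cdkn1c, which codes for the inhibitor p57, rose by 0.19 (adjusted p = 0.0167) from a low level of 2.98. Ccng1, a cyclin gene known as a p53 target, fell by 0.34 (adjusted p = 0.00181, limma) from 13.05. Cdkn1a, which codes for the inhibitor p21, had a mean of 12.76 with GRHL2 (SD 0.115, n = 4) and of 12.90 with pcDNA3 (SD 0.0510, n = 4), a difference of -0.14 with an adjusted p of 0.139 (limma) and 0.0117 with the block.

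Of 68 other replication genes, 2 were called higher and 2 lower (5.88%, against 16.4% of all genes). Ticrr, a factor of origin firing, and Chaf1b, a subunit of chromatin assembly factor 1, rose by 0.23 and 0.21, with adjusted p-values of 0.0414 and 0.0295 (limma). Orc4, a subunit of the origin recognition complex, and Mcm10, a replication initiation factor, fell by 0.33 and 0.24, with adjusted p-values of 0.0129 and 0.0454 (limma). Of 86 other mitotic genes, 2 were called higher and 1 lower (3.49%, against the same 16.4%). Cenpl, a kinetochore gene, rose by 0.43 (adjusted p = 0.0117), and Wee1, the kinase that inhibits CDK1 and is opposed by the CDC25 phosphatases, rose by 0.21 (adjusted p = 0.0405, limma). Cks2, which codes for a small CDK-binding protein, fell by 0.19 (adjusted p = 0.0295, limma). With the block, 11 of the 33, 15 of the 68 and 28 of the 86 genes were called, or 33.3%, 22.1% and 32.6%, against 32.1% of all genes. Of the 10 genes named as called in these lists, Mycl, Ccng1, Orc4 and Cenpl stayed called under each alternative that tested them, other than the test against a difference of 0.2. Under at least 1 of these alternatives the adjusted p (limma) rose to 0.0803 for Cdkn1c (GC correction), 0.120 for Ticrr, 0.191 for Chaf1b, 0.118 for Mcm10, 0.112 for Wee1 and 0.0846 for Cks2. The median differences of the 3 lists were -0.010, 0.000 and 0.000.

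Counting can miss reads of some of these genes, since it did not use the strand and leaves out reads that overlap more than 1 gene. Exons of 14 of the 52 genes overlap exons of a gene of the table on the other strand in GENCODE M21, most of all Gins2 (67.3% of its exon bases, with Gse1), and after Kif20a Ccnd1 (23.4%), Cdk4 (19.7%) and Ccne2 (17.4%). For Cdc25b the share is 2.47%, and Top2a, Slbp and Cdkn2c have no such overlap. Ccnb1, Ccnb2 and Pcna have annotated pseudogenes that are rows of the table too.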

How the data were processed

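BMEL cells were profiled by RNA-seq in 8 samples, with groups and replicate numbers read from the labels. The submitters' processing notes name HISAT2 2.2.1, HTSeq 0.9.1 and DESeq2 1.40.2 with mm10 and GRCm39. According to the methods, the authors counted exonic reads without strand, removed genes with fewer than 10 reads in all and divided rlog values by transcript length. The deposited table carries FPKM in its name, but it holds log2 values, as 7190 of 149368 values are negative and the range is -2.85 to 18.01. Depth per sample cannot be read from them. The rlog shrinks differences of low genes.

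The 2 groups were compared with limma 3.58.1 in R 4.3.3 on all 18671 genes (empirical Bayes moderation with a trend in the mean, p-values adjusted by Benjamini-Hochberg over all genes and called under 0.05), and intervals are 95% intervals of that fit. Same-numbered samples were treated as pairs in the block, since the correlation across genes of their deviations from the group means was 0.474 to 0.645 for the 4 numbers. It was also 0.344 to 0.602 between numbers 1 and 2 and between 3 and 4, and GRHL2 replicate 3 correlated more with control replicate 4 (0.602) than with control replicate 3 (0.549). The labels do not say what a number stands for, but figure legends of the study call the samples of a group independent biological replicates. The genes and lists were chosen with earlier results of these data known. Values in all samples are given for up to 5 called genes per class and for 6 set genes, of which Cdkn2a is absent, and for other cell cycle genes the 3 largest calls in each direction. Alternatives were 3 scalings, the block, a minimum mean of 5, no trend, a difference tested against 0.2, single samples left out, replicates 1 and 2 or 3 and 4 alone, and a lowess correction for transcript GC content (18428 genes). The limma code was tested on simulated data.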

Additional observations from a re-analysis of the deposited data

Results flagged for a closer look

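Among 112 groups of 4 samples (each of the 52 genes and the medians of the 4 classes, in GRHL2 and in control samples), 6 held 1 sample far from the other 3 by Dixon's criterion for 4 values. Chance alone marks about 1 in 20 groups, which is also about 6 here. In control replicate 2, Ccnd2 was at 12.10 and Gins2 at 8.24, with the other control samples at 12.25 to 12.27 and at 8.50 to 8.52. In control replicate 1, Cenpf was at 9.31, with the others at 9.21 to 9.23. In GRHL2 replicate 4, E2f1 was at 7.70, against 7.63 to 7.64 in the others. In GRHL2 replicate 2, Bub1b was at 10.96, below the others at 11.09. The median of the centred G1 regulators was 0.074 in GRHL2 replicate 1 and between -0.015 and -0.005 in the others.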

How the results depend on the processing

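Of the 4 genes called without the block, Cdc25b and Cdkn2c kept their call under all alternatives except the test against a difference of 0.2 and, for Cdc25b, replicates 1 and 2 alone. No called gene changed sign, and 15 genes without a call did so under some alternative, all with differences of at most 0.063 in size. The genes called higher numbered 3, against 5 with samples scaled to an equal upper quartile, 6 with an equal sum (adding Ccne1, Aurkb and Cenpf), 1 in replicates 1 and 2, 6 in replicates 3 and 4, 8 with the replicate block and 10 with the block and the GC correction (adding Cdk2 and Pcna to those of the block). The gene called lower numbered 1, against 0 with an equal sum and in replicates 3 and 4, 2 without the mean-variance trend, 7 with the replicate block and 6 with the block and the GC correction (adding Mcm2 to those of the block and without Rb1 and Cenpe). The test against 0.2 left 0 and 0. With both samples numbered 2 left out of the block, 8 were higher and 5 lower. With single samples left out, 0 to 1 were lower. The median of the S phase genes was 0.011, and -0.026 in replicates 1 and 2. For all genes called higher or lower, 3061 calls became 5985 with the replicate block, 5848 with the block and the GC correction, 5828 with the block without the GC correction and without the samples numbered 2, 1614 with a minimum mean of 5, 263 against 0.2, 1360 in replicates 1 and 2, 3715 in replicates 3 and 4, 4036 with an equal upper quartile and from 2017 (without control replicate 1) to 2884 with single samples left out. The share of these calls that were higher was 63.9%, against 75.9% with an equal upper quartile, 77.0% with an equal sum, 47.1% with an equal median and 44.3% with a minimum mean of 5. The causes of these changes were not tested.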
